A study of Mus musculus with 6 samples.

Results

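The 9 Krüppel-like factor genes Klf2, Klf3, Klf4, Klf6, Klf7, Klf9, Klf10, Klf11 and Klf13 were taken by symbol from a table of 21878 genes, which holds 17 Klf genes in all. All 9 passed the filter on low counts and were among the 11459 genes tested. The cells were wild-type macrophages that C57BL/6 bone marrow gave rise to in 50 ng/mL of the growth factor M-CSF. The macrophages first shared medium for 48 h with cells of the mouse lung carcinoma line LLC across a transwell membrane with pores of 0.4 µm. After a medium change, 3 libraries came from cells given 100 µg/mL of the plant sesquiterpene β-elemene for 24 h, and 3 from cells given the same volume of phosphate-buffered saline (PBS) instead. Both groups therefore carry the tumour-cell conditioning, and no unconditioned macrophages are among the samples. Nothing in the labels states that the replicates were separate cultures or animals, and the spread behind the p-values is that of these 6 libraries and possibly technical.

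Krüppel-like factors are transcription factors that share a run of C-terminal zinc fingers and bind GC-rich and CACCC-box sites. Their N-terminal parts differ and recruit different activators or repressors. In macrophages Klf6 is known for promoting inflammatory gene expression, Klf2 for restraining it, and Klf4 for monocyte differentiation and, with STAT6, alternative activation.

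With β-elemene, Klf2, Klf3, Klf6, Klf7, Klf11 and Klf13 rose and Klf9 and Klf10 fell, while Klf4 did not pass the test. Thus 6 of 9 members were called higher, where 36.6% of all genes tested were, and 2 were called lower, where 40.2% of all genes were (edgeR quasi-likelihood test, Benjamini-Hochberg adjusted p under 0.05). Changes in either direction covered 8 of 9 members and 76.7% of all genes, so the number of calls by itself is no result about the family. At least 2-fold changes were called for 7 of 9 members, 5 higher and 2 lower, where 35.3% of all genes passed, 17.0% higher and 18.3% lower. The groups did not overlap for 8 of 9 members and for 79.9% of all genes. The members' median log2 fold change was 1.43, beside -0.06 for all genes tested. Scaling bears on the small changes. When library size alone replaced the TMM factors, the median of all genes moved by -0.64, 2166 of all genes were called higher and 8003 lower in place of 4189 and 4602, and 5 members were called higher and 2 lower. Klf4 and Klf13 then changed sign, as given below.

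**Figure D1:**
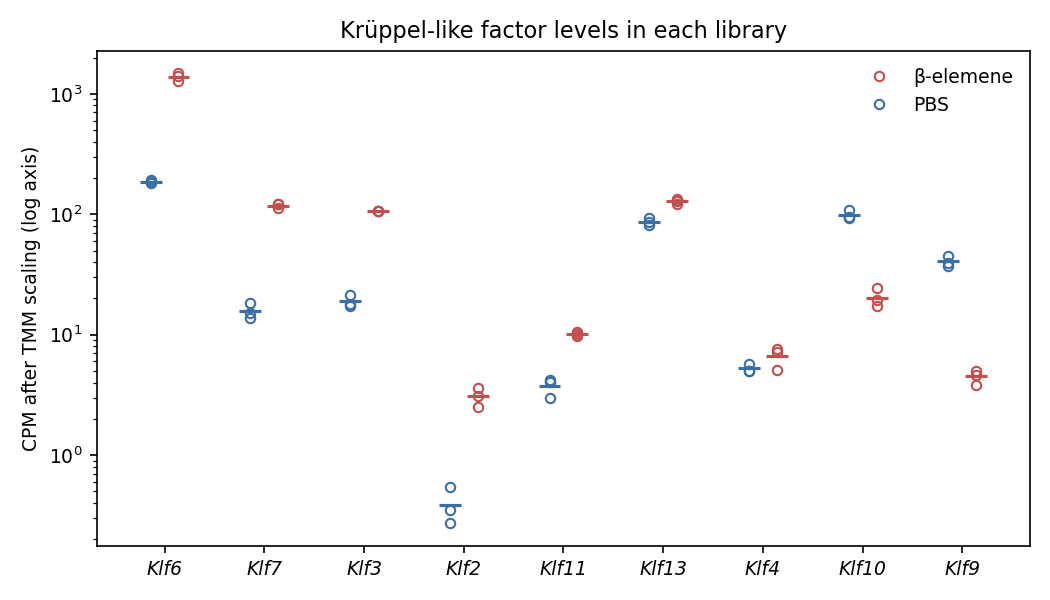
Level of each member in each library, as CPM (read counts relative to the scaled library total) after TMM scaling on a log axis; open circles are libraries and bars are group means (n = 3). Klf6 lies highest in both groups, 8 members separate the groups, and the β-elemene libraries of Klf4 spread across the PBS values.

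Total counts were 18916844 to 20729887 per library. The TMM scaling factors lay between 0.794 and 0.812 in the β-elemene group and between 1.24 and 1.26 in the PBS group. The macrophage markers Adgre1, Csf1r and Cd68 stood at 1547 ± 43.7, 928 ± 66.1 and 1384 ± 37.3 CPM with β-elemene and at 1054 ± 67.4, 2671 ± 82.3 and 1162 ± 57.9 with PBS (SD, n = 3 per group). All 8 of 8 macrophage markers were tested, and their sum lay between 15400 and 16040 CPM in the β-elemene group and between 12480 and 13440 in the PBS group. The CPM sums of all marker lists here carry the TMM factors and were not computed with other scalings. In summed counts, Adgre1, Csf1r and Cd68 had 74180, 44415 and 66369 with β-elemene and 81436, 206322 and 89780 with PBS. Adgre1 and Cd68 thus take the opposite order in counts, and Csf1r keeps its order. The 6 epithelial or carcinoma markers summed to at most 0.155 CPM in any library, with Krt19, Krt5 and Cldn4 at 0 in all of them. Among the markers of other cells, the endothelial list summed to 2.67 to 4.12 CPM with β-elemene and 16.45 to 20.95 with PBS. Summed counts were 110 and 1413 for Pecam1, which fell and carries most of the PBS sum. They were 61 and 21 for Cdh5, which rose (by edgeR, adjusted p = 1.05e-04). Its PBS counts of 5, 8 and 8 lay under the filter's minimum count of 10. Cdh5 passed that filter only through the β-elemene libraries, where it is high, and its call is limited by that. The T cell list summed to 5.47 to 7.60 CPM with β-elemene and 5.18 to 6.87 with PBS, with summed counts of 313 and 454 for Cd4. The fibroblast list summed to 17.8 to 24.7 and 10.4 to 13.1 CPM, with summed counts of 23 and 243 for Col1a1 and of 870 and 168 for Pdgfrb. The dendritic list summed to 0.429 to 1.72 and 3.20 to 4.23 CPM. The lists for neutrophils, B cells, mast cells and erythroid cells stayed at or below 2.33 CPM in every library. The part of these shifts in the results below was not tested. In bulk libraries, fewer cells of a type and less RNA per cell cannot be told apart.

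Promoter stretches are shown for the member with the highest level, Klf6, the member with the largest fall, Klf9, and Klf2, which carries a MEF2-like match. Each is the 250 bases before the RefSeq start on GRCm38.p6, 5′ to 3′ on the gene's strand. They lie at chr13:5861239-5861488 (plus strand), chr19:23140976-23141225 (plus strand) and chr8:72318812-72319061 (plus strand). Capitals mark matches to the GC box GGGCGG in Klf6 and Klf2, to the CACCC box CCACCC and a MEF2-like pattern in Klf2, and to the GAS pattern TTCNNNGAA and the AP-1 pattern TGANTCA in Klf9, on either strand and with no overlap between patterns.
Klf6: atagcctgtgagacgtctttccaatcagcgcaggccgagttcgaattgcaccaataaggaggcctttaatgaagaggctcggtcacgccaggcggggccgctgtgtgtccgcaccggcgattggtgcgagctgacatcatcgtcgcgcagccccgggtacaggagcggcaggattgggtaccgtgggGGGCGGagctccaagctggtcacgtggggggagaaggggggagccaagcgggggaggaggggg
Klf9: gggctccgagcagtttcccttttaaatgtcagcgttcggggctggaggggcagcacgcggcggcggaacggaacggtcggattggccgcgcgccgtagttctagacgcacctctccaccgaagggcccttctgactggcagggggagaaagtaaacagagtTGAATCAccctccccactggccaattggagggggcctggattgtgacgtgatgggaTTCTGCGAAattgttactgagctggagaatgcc
Klf2: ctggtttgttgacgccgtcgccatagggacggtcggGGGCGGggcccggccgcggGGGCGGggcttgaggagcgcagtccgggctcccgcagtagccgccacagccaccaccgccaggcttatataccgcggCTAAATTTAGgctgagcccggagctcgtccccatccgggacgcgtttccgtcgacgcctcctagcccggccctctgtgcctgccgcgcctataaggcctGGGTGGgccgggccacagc
The Klf2 match reads CTAAATTTAG and lies 118 to 109 bases before the start. MEF2 factors, which the kinase ERK5 activates, are known inducers of Klf2.

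RefSeq promoter windows of 300 bases, from 250 before to 50 after the start, were found for 8 of 9 members, all but Klf10. GGGCGG was present in 7 of these 8 windows, Klf9 being the exception, and in 35.7% of all 32851 windows. CCACCC was present in those of Klf2, Klf3, Klf7 and Klf13 and in 31.5% of all windows. Klf9 alone among the 8 held TTCNNNGAA and TGANTCA, which 8.30% and 7.81% of all windows hold. The MEF2-like pattern, CTA and TAG at the spacing of the match above with any bases between, was chosen after the sequences were seen. It was in the Klf2 window alone among the 8 and in 3.69% of all windows. None of the 8 held CCACACCC, the CRE TGACGTCA or TATAAA, which 3.56%, 1.79% and 13.6% of all windows hold. For interferon response elements, NF-kB sites, MEF2 sites and glucocorticoid response elements, a single planned pattern each was searched. These patterns were in none of the 8 and in 3.44%, 0.155%, 0.164% and 0.475% of all windows. Apart from the MEF2-like pattern, other forms of these sites were not searched, so absence of the sites was not tested. The GC content of the member windows was 58.3% in Klf7 to 77.7% in Klf11, beside a median of 52.7% over all windows. A match describes letters in a window and is neither a site nor a cause.

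Klf6 (chromosome 13, 5861489 to 5870393) was the most abundant member, with rank 176 among the tested genes by mean CPM. It stood at 1413, 1267 and 1481 CPM in β-elemene replicates 1, 2 and 3 and at 187, 181 and 191 CPM in PBS replicates 1, 2 and 3. The groups lay far apart, and the lowest β-elemene library was several times the highest PBS library. The log2 fold change was 2.89 (SE 0.07; by edgeR, adjusted p = 5.77e-13), a 7.43-fold rise.

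Klf7 (chromosome 1, 64029448 to 64122345), the closest relative of Klf6 in the family, stood at 122, 121 and 112 CPM with β-elemene and at 15.02, 13.8 and 18.4 CPM with PBS. Its log2 fold change was 2.91 (SE 0.09; by edgeR, adjusted p = 1.68e-11). The ratio of Klf6 to Klf7, taken per length within each library and thus free of the scaling between libraries, was 4.44 ± 0.17 on the log2 scale with β-elemene and 4.47 ± 0.18 with PBS (SD, n = 3 per group). These ranges overlapped, and the difference of -0.03 was smaller than the spread between replicates (two-sided exact permutation p = 1.0). The pair therefore rose side by side, from levels that differed widely. The longest identical stretch that their longest coding transcripts share was 26 bases, the longest for any of the 55 pairs among the members, Klf8 and Klf16, and far shorter than the reads of 125 or 150 bases.

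Klf3 (chromosome 5, 64803521 to 64832901), a repressor that works through the CtBP corepressors, stood at 106, 106 and 106 CPM with β-elemene and at 18.1, 17.5 and 21.4 with PBS. The β-elemene libraries were nearly identical (SD 0.152), and the groups did not overlap. The log2 fold change was 2.48 (SE 0.08; by edgeR, adjusted p = 3.50e-12). Klf8, which is no member and belongs to the same CtBP-binding branch, stood at 35.5, 33.2 and 44.7 CPM with β-elemene and at 4.76, 4.39 and 4.56 with PBS. It rose by a log2 fold change of 3.05 (SE 0.12; by edgeR, adjusted p = 8.48e-11). Klf12, the remaining gene of that branch, did not pass the filter, with 17 counts in all with β-elemene and 41 with PBS. Of the corepressors themselves, Ctbp1 fell by 0.18 on the log2 scale (SE 0.06; by edgeR, adjusted p = 0.0111) and Ctbp2 had a log2 fold change of 0.15 (SE 0.08; by edgeR, adjusted p = 0.0976), which is -0.16 with the upper quartile and -0.48 with library size alone. Ctbp2 was called lower with library size alone (edgeR adjusted p = 6.40e-05) and higher, at 0.19, with size factors by median of ratios (edgeR adjusted p = 0.0404). The Ctbp1 call was lost with DESeq2 and without β-elemene replicate 3 or PBS replicate 1 (adjusted p = 0.0651, 0.0673 and 0.05095; range over alternatives 1.56e-08 to 0.0673). Fhl3, a LIM-domain partner of Klf3, rose by a log2 fold change of 1.91 (SE 0.10).

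Klf2 (chromosome 8, 72319062 to 72321654) was scarce. It had 41, 55 and 51 counts in the β-elemene libraries and 9, 14 and 7 in the PBS libraries, which is 2.52, 3.58 and 3.13 CPM against 0.349, 0.544 and 0.273. Every β-elemene library lay above every PBS library. The log2 fold change was 2.96 with a wide SE of 0.32 (edgeR adjusted p = 1.47e-06, 95% interval 2.28 to 3.65). Its PBS counts were close to the minimum of the filter, which it passed through the β-elemene libraries. Klf2 is abundant in T cells and endothelium. Of the T cell markers, Cd3e had 0 counts in all with β-elemene and 1 with PBS, Cd3d had 2 and 1, and Cd4 stood at 6.51 and 5.88 CPM, above Klf2 itself, with a log2 fold change of 0.15 that did not pass. Of the endothelial markers, Cdh5, which like Klf2 passed the filter through the β-elemene libraries, rose from 0.272 to 1.27 CPM. Pecam1 fell from 18.3 to 2.28 CPM. The part of such cells in the Klf2 counts was not tested.

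Klf4 (chromosome 4, 55527137 to 55532475) was the member whose groups overlapped. It stood at 7.26, 5.14 and 7.60 CPM with β-elemene and at 5.03, 5.75 and 5.03 with PBS. The log2 fold change was 0.34 (SE 0.16; by edgeR, adjusted p = 0.0703), and its 95% interval of -0.01 to 0.69 leaves room for a rise of moderate size. Without β-elemene replicate 2, the low library, it was 0.52 with adjusted p = 0.00589, and with size factors by median of ratios 0.38 with adjusted p = 0.0479. With library size alone it was -0.30 (adjusted p = 0.095; range over alternatives 0.00589 to 0.882). The within-library ratio of Klf2 to Klf4 per length was -0.39 ± 0.52 on the log2 scale with β-elemene and -3.10 ± 0.40 with PBS (SD, n = 3 per group). The ratio was higher in all 3 β-elemene libraries than in any PBS library, by 2.71 (two-sided exact permutation p = 0.1, the smallest that 3 against 3 allows).

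Klf10 and Klf11 are early response genes of TGF-beta signalling, and both recruit the Sin3a corepressor. Klf10 (chromosome 15, 38291464 to 38300711) stood at 19.5, 24.3 and 17.2 CPM with β-elemene and at 93.2, 110 and 95.3 CPM with PBS. It fell by 2.29 on the log2 scale (SE 0.11; by edgeR, adjusted p = 1.49e-08), which is 4.89-fold. Klf11 (chromosome 12, 24651371 to 24662782) moved the other way, from 4.07, 4.19 and 3.001 CPM with PBS to 10.4, 9.83 and 10.1 with β-elemene. Its log2 fold change was 1.43 (SE 0.15; by edgeR, adjusted p = 1.01e-06). The within-library log2 ratio of Klf10 to Klf11 per length was 1.05 ± 0.28 with β-elemene and 4.79 ± 0.24 with PBS (SD, n = 3 per group), and the groups did not overlap (difference -3.74, two-sided exact permutation p = 0.1, the smallest possible).

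Klf9 (chromosome 19, 23141226 to 23168129), which glucocorticoids and thyroid hormone induce in many tissues, fell most of the members. It stood at 4.67, 5.01 and 3.86 CPM with β-elemene and at 37.3, 45.0 and 39.3 with PBS. It fell by 3.17 on the log2 scale (SE 0.12; by edgeR, adjusted p = 2.15e-11), or 8.99-fold. Klf13 (chromosome 7, 63886351 to 63938915), a relative of Klf9 known for driving Ccl5 in T lymphocytes, stood at 130, 133 and 122 CPM with β-elemene and at 82.1, 92.5 and 85.6 with PBS. It rose by a log2 fold change of 0.57 (SE 0.06; by edgeR, adjusted p = 1.72e-06), which with library size alone was -0.07 (adjusted p = 0.303; range over alternatives 6.24e-15 to 0.303). Klf16, a further relative, stood at 11.1 ± 2.31 and 10.0 ± 0.737 CPM (0.14 on the log2 scale with SE 0.14; by edgeR, adjusted p = 0.369). That call is passed without β-elemene replicate 3, at 0.31 (adjusted p = 0.0365; range over alternatives 0.00568 to 0.921). The sign is negative with the upper quartile (-0.17) and with library size alone (-0.49), where Klf16 was called lower (edgeR adjusted p = 0.00568). The within-library log2 ratio of Klf9 to Klf13 per length was -4.19 ± 0.13 with β-elemene and -0.45 ± 0.05 with PBS (SD, n = 3 per group; difference -3.74, two-sided exact permutation p = 0.1). The 4 within-library pairs were chosen after the values were seen, and their p-values adjusted over the pairs are 0.133 for the 3 that differ and 1.0 for Klf6 and Klf7.

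**Figure D2:**
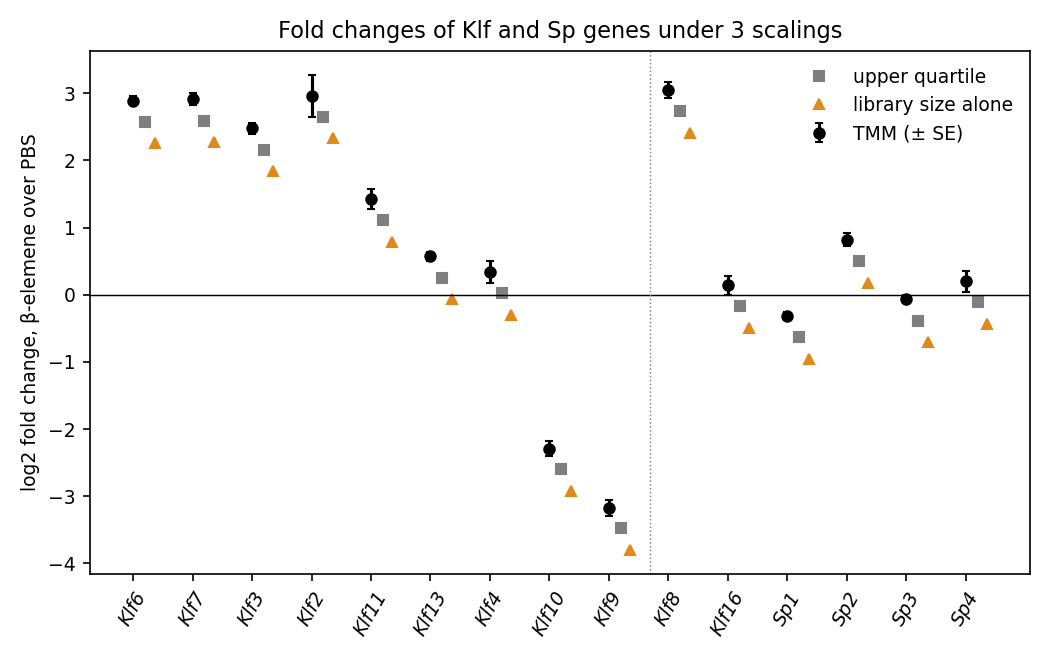
Log2 fold change of β-elemene over PBS for the 9 members (left of the dotted line) and for the other tested Klf and Sp genes; circles are TMM scaling with bars of ± SE, squares the upper quartile and triangles library size alone. The squares and triangles lie below the circles. Klf13 and Klf4 fall below 0 with library size alone, while Klf9 and Klf10 stay below -2 and Klf2, Klf3, Klf6 and Klf7 stay above 1.8.

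Compared per length (CPM per kilobase of merged exons), the order of the members differed between the groups. With PBS it ran Klf6 (42.5 ± 1.15), Klf10 (23.8 ± 2.11), Klf13 (11.5 ± 0.704), Klf9 (8.42 ± 0.828), Klf7 (1.94 ± 0.292), Klf4 (1.73 ± 0.136), Klf3 (1.69 ± 0.185), Klf11 (0.865 ± 0.151) and Klf2 (0.210 ± 0.0757), all as level ± SD with n = 3. Klf7 and Klf4 overlapped in that order, as did Klf4 and Klf3. With β-elemene it ran Klf6 (316 ± 24.9), Klf13 (17.1 ± 0.731), Klf7 (14.5 ± 0.672), Klf3 (9.40 ± 0.0135), Klf10 (4.87 ± 0.870), Klf11 (2.33 ± 0.0728), Klf4 (2.19 ± 0.437), Klf2 (1.66 ± 0.288) and Klf9 (0.938 ± 0.123). Here Klf11 and Klf4 overlapped, as did Klf4 and Klf2. The place of Klf3 rests on its length. Divided by its longest coding transcript (5221 bases in place of 11243), it reached 20.2 with β-elemene and 3.64 with PBS. On that measure Klf13 stood at 20.1 with β-elemene. The gap between them is small beside the spread of Klf13 between replicates, so the 2 share the place after Klf6.

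The make-up of the family moved accordingly. Klf6 held 85.8%, 84.1% and 86.9% of the summed per-length level of the 9 members in the β-elemene libraries and 47.5%, 43.2% and 47.1% in the PBS libraries. Klf10 went from 25.6 ± 1.56% with PBS to 1.33 ± 0.327% with β-elemene, Klf9 from 9.08 ± 0.622% to 0.256 ± 0.0483%, and Klf13 from 12.4 ± 0.388% to 4.64 ± 0.484% (SD, n = 3 per group). No member's share overlapped between the groups, and each gave the smallest two-sided exact permutation p that 3 against 3 allows, 0.1 before and after adjustment over the 9 members. The shares of Klf4 and Klf11 were also lower with β-elemene, at 0.589 ± 0.0849% against 1.86 ± 0.0989% and at 0.633 ± 0.0324% against 0.934 ± 0.162%. Those of Klf7, Klf3 and Klf2 were higher, at 3.96 ± 0.388% against 2.09 ± 0.334%, 2.56 ± 0.161% against 1.82 ± 0.214% and 0.455 ± 0.102% against 0.226 ± 0.0756%. Shares sum to 100%, so they are not independent of each other. The sum of the members was 369 ± 23.1 CPM per kilobase with β-elemene and 92.7 ± 2.80 with PBS, and without Klf6 it was 53.0 ± 1.94 and 50.1 ± 3.65. Those without Klf6 overlapped, with 50.9 to 54.7 against 47.2 to 54.2. Unlike the shares, these sums depend on the TMM factors, which were lower in every β-elemene library than in any PBS library. The overlap without Klf6 was seen with that scaling, and the sums were not computed with others.

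**Figure D3:**
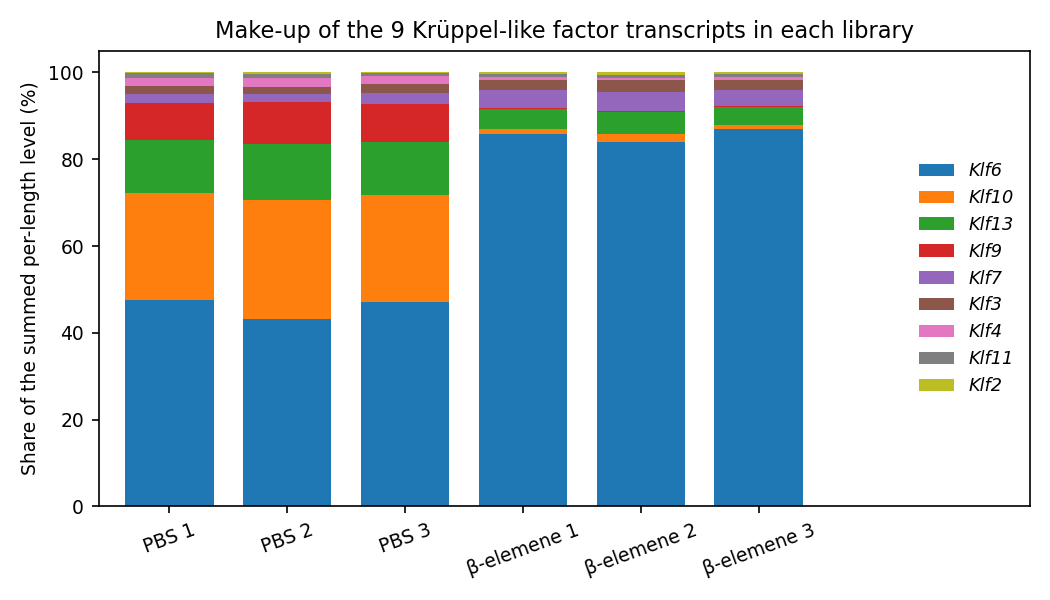
Share of each member in the summed per-length level of the 9 members, in percent, as stacked bars for each library. The Klf6 block covers 43.2% to 47.5% of the PBS bars and 84.1% to 86.9% of the β-elemene bars, where Klf10 and Klf9 shrink to narrow bands.

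Apart from Klf8 and Klf16, the rest of the Klf family was at or near 0. Klf14 and Klf17 had 0 counts in every library, which allows up to 3 counts or 0.116 to 0.195 CPM per library, a limit that covers counting error only. Klf1, the erythroid member, had 0 counts with β-elemene and 3 with PBS in all, Klf5 had 6 and 2, and Klf15 had 1 and 14. The related Sp factors bind GC boxes, and 4 of 9 passed the filter. No 2-fold change was called among these 4, of which Sp2 rose from 11.1 ± 0.792 to 19.6 ± 1.66 CPM (0.82 on the log2 scale; by edgeR, adjusted p = 5.09e-06) and Sp1 fell from 98.9 ± 1.73 to 79.5 ± 1.66 (-0.31 on the log2 scale; by edgeR, adjusted p = 1.17e-04). The rise of Sp2 was 0.18 with library size alone (adjusted p = 0.0969; range over alternatives 3.70e-11 to 0.0969). Sp3 and Sp4 had log2 fold changes of -0.07 (edgeR adjusted p = 0.301) and 0.20 (edgeR adjusted p = 0.26). With the upper quartile Sp3 passed at -0.39, and Sp4 turned to -0.11 and did not pass. With library size alone both passed, at -0.71 and -0.44 (edgeR adjusted p = 1.37e-07 and 0.01675), and 3 Sp genes in place of 1 were called lower. Sp6, named after its values were seen, had 19 counts in all with β-elemene and 7 with PBS and was not tested. With no filter on low counts 2 Sp genes in place of 1 were called higher.

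Of 13 cofactors of the family, 6 rose, 4 fell and 3 did not pass, with a median log2 fold change of 0.15 beside -0.06 for all genes. For this list and those below, the shares among all genes tested were 36.6% called higher and 40.2% called lower. Sap30, a subunit of the Sin3 complex that Klf9, Klf10, Klf11, Klf13 and Klf16 recruit, rose from 18.2 ± 0.498 to 163 ± 0.255 CPM (3.16 on the log2 scale with SE 0.06; by edgeR, adjusted p = 4.49e-14). The acetyltransferase Kat2b and the deacetylase Hdac1 rose by 2.38 and 1.99 on the log2 scale, while Sin3a itself fell by 0.28 and the acetyltransferase Kat2a fell by 0.82. The call of Sin3a was lost without β-elemene replicate 3 (-0.20, adjusted p = 0.0578; range over alternatives 1.33e-07 to 0.0578). With library size alone 8 cofactors in place of 4 were called lower. The count of 4 falls to 2 with DESeq2 and without PBS replicate 1, and to 1 without β-elemene replicate 3.

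In the route from MEKK kinases through ERK5 and MEF2 to Klf2 and Klf4, with the CCM proteins that restrain it, 4 of 11 genes rose, 6 fell and 1 did not pass (median log2 fold change -0.42). Mapk7, which encodes ERK5, rose by a log2 fold change of 1.08 (SE 0.10; by edgeR, adjusted p = 3.40e-07). Its upstream kinases Map3k2, Map3k3 and Map2k5 fell by 0.70, 0.71 and 0.42 on that scale. Of the MEF2 factors, Mef2c and Mef2d fell by 1.61 and 1.37 on the log2 scale, and Mef2a had 0.04 (edgeR adjusted p = 0.593). With the upper quartile and with library size alone Mef2a was -0.28 and -0.60 and was called lower (edgeR adjusted p = 0.000771 and 5.10e-07). Hdac5, a deacetylase that holds MEF2 inactive, fell from 61.0 ± 2.82 to 9.08 ± 0.540 CPM (log2 fold change -2.75, SE 0.08), and Pdcd10, a CCM protein, rose by 1.33. With library size alone 2 genes of this list were called higher in place of 4. With either of these scalings 7 were called lower in place of 6.

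Among 6 ubiquitin ligases that act on members, 3 rose and 2 fell, none as much as 2-fold (median log2 fold change 0.21). Wwp1, a ligase for Klf2, fell by 0.89 on the log2 scale, and Fbxw7, Siah1a and Itch rose by 0.74, 0.66 and 0.47. With library size alone none of them was called higher, 4 were called lower and Itch stood at -0.16. The second ligase that fell, Smurf1 (-0.15), was named after its values were seen: its call was lost with median of ratios, with DESeq2 and without β-elemene replicate 1, 2 or 3 or PBS replicate 2 or 3.

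For Klf10 and Klf11, the TGF-beta list of 9 genes had 3 higher, 4 lower and 2 that did not pass (median log2 fold change -0.15). The 4 that fell did so at least 2-fold. They were the receptor Tgfbr1, from 681 ± 48.3 to 86.8 ± 8.22 CPM (-2.97 on the log2 scale with SE 0.08; by edgeR, adjusted p = 1.88e-12), the inhibitor Smad7 at -2.13, the signal transducer Smad3 at -1.41 and the corepressor Ski at -2.96. Skil, the relative of Ski, rose by 0.46, which is -0.18 with library size alone. With that scaling all 9 genes were called lower, and with the upper quartile 1 gene in place of 3 was called higher.

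For Klf9, the list of glucocorticoid response and clock genes had 2 of 12 tested members higher, 9 lower and 1 that did not pass (median log2 fold change -0.63). Nr3c1, the glucocorticoid receptor, rose from 62.1 ± 4.41 to 265 ± 7.24 CPM (2.09 on the log2 scale with SE 0.06; by edgeR, adjusted p = 2.99e-12). Of the genes that the receptor is known to induce, Tsc22d3 fell from 66.0 ± 2.49 to 3.61 ± 0.234 CPM and Sgk1 from 568 ± 41.5 to 230 ± 26.2 CPM. The clock gene Per2 fell by 1.01 on the log2 scale. With the upper quartile and with library size alone 1 gene in place of 2 was called higher.

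Of 14 genes described downstream of Klf2, Klf4, Klf6 or Klf13, 13 were tested, of which 5 rose and 8 fell (median log2 fold change -1.15, beside -0.06 for all genes). Several of them were already known to change in these libraries when the list was drawn up. Of the Klf2 targets, the receptor S1pr1 fell by 4.73 on the log2 scale and thrombomodulin, Thbd, fell from 3.70 ± 0.175 to 0.499 ± 0.155 CPM. Of the genes that Klf4 is known to drive with STAT6, Chil3 and Mrc1 fell by 4.94 and 4.64 on the log2 scale, and the counts of Arg1 summed to 2 with β-elemene and 43095 with PBS. Pparg fell from 20.5 ± 3.34 to 4.55 ± 0.350 CPM. Bcl6, a repressor that Klf6 is reported to lower in macrophages, rose from 65.5 ± 4.51 to 116 ± 3.44 CPM (0.83 on the log2 scale with SE 0.06; by edgeR, adjusted p = 4.14e-08). Ccl5, the chemokine target of Klf13, rose from 133 ± 41.7 to 3526 ± 163 CPM, or by 4.73 on the log2 scale with an SE of 0.26.

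**Figure D4:**
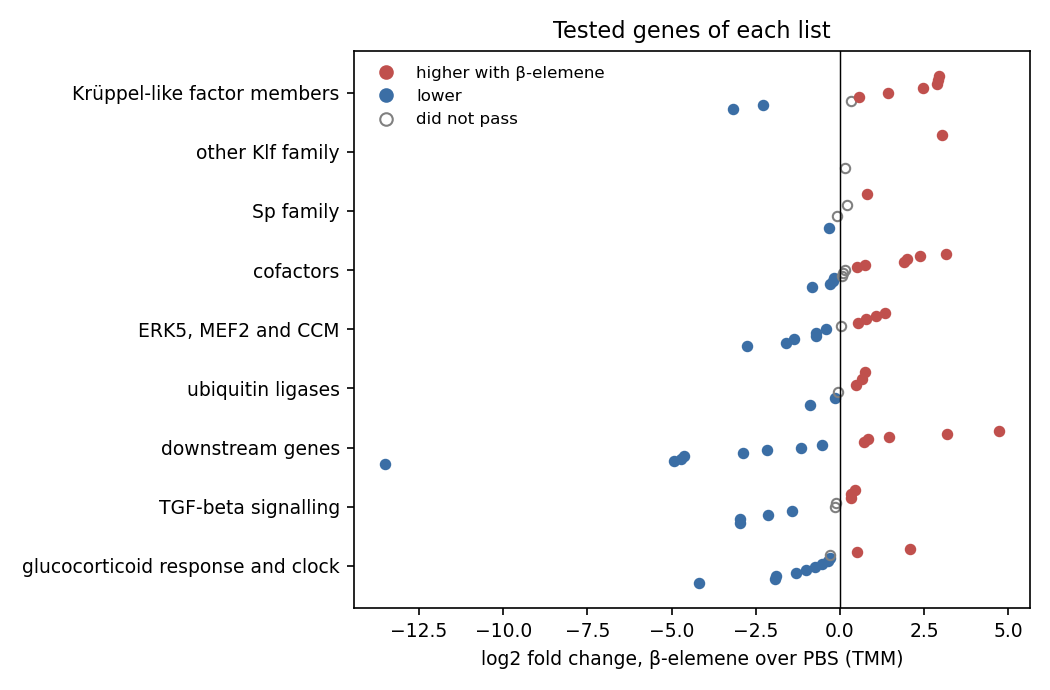
Log2 fold change (β-elemene over PBS, TMM) of every tested gene of the members and of each list; each circle is a gene, filled and coloured by direction where the edgeR adjusted p is under 0.05, and open grey where it is not. Genes of every list but the 2 other tested Klf genes lie on both sides of 0; the circle at the far left is Arg1, whose fitted value rests on 2 counts in the β-elemene libraries and is no bound.

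The members lie on 9 chromosomes, and their neighbours did not share their changes throughout. Of the 18 nearest protein-coding genes, one on each side of each member, 11 were tested, of which 9 rose, 1 fell and 1 did not pass. Of all genes tested, 36.6% were called higher and 40.2% lower. Next to the fallen members, Smc5 beside Klf9 and Azin1 beside Klf10 rose by 0.49 and 0.44 on the log2 scale, which is -0.15 and -0.19 with library size alone. Beside Klf3, Tbc1d1 and the Toll-like receptor gene Tlr1 rose by 1.67 and 1.43. Beside Klf2, Ap1m1 and Eps15l1 rose by 0.57 and 0.69, and Ap1m1 is -0.06 with library size alone. With that scaling Eps15l1, Pitrm1 and Grhl1 no longer passed, at 0.05, 0.01 and 0.32. Beside Klf6, Pitrm1 rose by 0.65 and Akr1e1 fell by 0.79. Creb1 beside Klf7 rose by 0.30, which is -0.02 with the upper quartile and -0.34 with library size alone, Grhl1 beside Klf11 rose by 0.96, and Rad23b beside Klf4 had -0.11 (edgeR adjusted p = 0.135), which passed with the upper quartile (-0.42), with library size alone (-0.74) and without β-elemene replicate 2 (-0.15). In the GENCODE M21 annotation, genes on the opposite strand overlap Klf3, Klf7 and Klf13. The one of these in the count table, E030018B13Rik at Klf13, had 0 counts. By RefSeq positions the protein-coding gene Gm38457 overlaps Klf3, with a mean of 0.2855 CPM over all libraries, and it was not tested.

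Klf2 had the largest fitted rise and Klf9 the largest fall, although the rise of Klf2 differed from those of Klf7 and Klf6 by less than its SE. Without PBS replicate 3 it was 2.77 on the log2 scale, below 3.03 for Klf7 and 2.91 for Klf6. For Klf2 and Klf9, the genes most like them were sought by the Euclidean distance between log2(CPM + 0.1) profiles over the 6 libraries, each centred on its mean, among genes of at least 5 CPM. Nearest to Klf9 were Smpd2, a neutral sphingomyelinase (distance 0.119), Rragd, a GTPase of amino acid sensing (0.226), and Slc26a11, an anion transporter (0.241). Nearest to Klf2 were Plpp3, a lipid phosphatase (0.412), Lrp11 (0.464) and Serpinb9, a granzyme B inhibitor (0.499). Klf2 itself lay below the cut of 5 CPM, with a mean of 1.73 CPM. Its PBS levels of 0.273 to 0.544 CPM were near the added 0.1, so its nearest genes rest in part on that added value. With 6 libraries in 2 groups, the points of a profile share their group, and these distances are a description.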

How the data were processed

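The labels' protocols give a stranded mRNA kit, RNA of integrity number 7 or more, and paired reads of 125 or 150 bases. The aligner was HISAT2 2.2.1.0, with GRCm38.p6 (mm10) as genome build, per the submitters' processing notes. The table that the authors deposited holds whole-number read counts for each gene, without normalization. The sources used here do not give the counting tool or its strand setting, so antisense partners cannot be told apart. Gene positions and promoters are RefSeq's (GRCm38.p6), and lengths are those of GENCODE M21. 27 damaged or repeated symbols were replaced by gene identifier.

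The filter was filterByExpr at its minimum count of 10 and total of 15. Counts were scaled with TMM and tested with edgeR 4.0.16 in R 4.3.3 (robust quasi-likelihood fit, group as the only term, 4 residual degrees of freedom), with Benjamini-Hochberg adjustment over all 11459 genes at 0.05. The SE comes from the log2 fold change and its F statistic. The fit was tested on simulated counts in which few genes changed and composition was not made to differ between the groups. That test does not bear on the choice of scaling. Titles gave groups and replicate numbers. Levels per length are CPM per kilobase of merged exons. Alternatives were other scalings and filters, DESeq2 1.42.0, limma-voom (limma 3.58.1), a replicate block and leaving out each library. The members and gene lists were chosen with earlier results of these data known. The genes named were all members, other Klf and Sp genes of at least 1 CPM, up to 4 called genes per list, the most changed first, of which up to 2 against the main direction, partners of members, nearest neighbours and the 3 most similar profiles. One gene of the downstream list is not reported here by name.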

Additional observations from a re-analysis of the deposited data

How the results depend on the processing

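Klf2, Klf3, Klf6, Klf7, Klf9, Klf10 and Klf11 kept their direction and their call under all 14 alternatives. Their log2 fold changes ranged from 2.33 to 3.28, 1.84 to 2.57, 2.26 to 2.98, 2.27 to 3.03, -3.80 to -3.05, -2.92 to -2.17 and 0.79 to 1.51. With library size alone 2166 genes were higher and 8003 lower, Klf4 was -0.30 and Klf13 -0.07. That scaling gave negative log2 fold changes for Klf16 (-0.49), Sp4 (-0.44), Ctbp2 (-0.48), Mef2a (-0.60), Itch (-0.16), Skil (-0.18), Ap1m1 (-0.06), Creb1 (-0.34), Smc5 (-0.15) and Azin1 (-0.19). All of these but Ap1m1 and Smc5 were then called lower. The upper quartile gave negative values for Klf16 (-0.17), Sp4 (-0.11), Ctbp2 (-0.16), Mef2a (-0.28) and Creb1 (-0.02), of which Mef2a alone was called lower. These scalings moved the median of all genes by -0.64 and -0.32. Klf4 passed with size factors by median of ratios (0.38) and ranged from 0.25 to 0.52 with 1 library left out. With the replicate block 6 members were higher and 2 lower, as without it, and no member's call changed (4188 and 4605 of all genes). Deviations of same-numbered libraries correlated at -0.0328, 0.0571 and 0.0151. No shared deviation was thus seen, which does not settle whether equal numbers mark a shared culture or animal. Without division by length, the change in share was 0.0889 percentage points for Klf2, 1.78 for Klf3, -0.780 for Klf4, 36.8 for Klf6, 3.20 for Klf7, -20.5 for Klf10 and -11.7 for Klf13. With the longest transcript as length, an alternative chosen after seeing the data, it was 1.72 for Klf3, -1.06 for Klf4, -8.11 for Klf9 and -28.5 for Klf10. Klf2, with 7 to 55 counts per library, is the member that depth limits most.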
